A study of Drosophila melanogaster with 136 samples.

Results

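The hindgut of feeding third-instar larvae of Drosophila melanogaster was compared with the hindgut of adult flies, 4 arrays against 4, chosen by their sample titles from the 136 arrays of a tissue atlas of gene expression. All animals were of the Canton-S wild-type strain and carried no transgene or treatment. Each larval array held RNA pooled from 30 larvae, and each adult array RNA pooled from 60 female and 60 male flies that were 7 days old. In both stages the tissue ran from behind the entry of the Malpighian tubules to the anus and included the rectum, and the RNA had 1 round of amplification. Stage cannot be told apart from the number of animals pooled, from the sex make-up of the pools or from any date of hybridisation, which the labels do not give. The adult titles call the replicates biological, whereas the larval titles only number them. The source of each pool is not described further, and the p-values therefore cover only the variation among the deposited arrays, which may be technical.

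The fly hindgut is an epithelial tube of ectodermal origin, lined on its inner face by a chitinous cuticle and wrapped in visceral muscle. It receives urine from the Malpighian tubules and waste from the midgut, and it takes back water, ions and metabolites before excretion. The transcription factor brachyenteron specifies it in the embryo. The larva sheds and renews the cuticular lining at each moult, and the adult hindgut, with its rectal papillae, is built anew during metamorphosis.

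The array reports 1 signal for each probe set, a group of short probes to a transcript, in linear intensity units. The deposited arrays share a mean signal of 100.0 over the middle of their range. Values were compared as log2(signal + 10), so that folds of weak genes are understated, and a log2 difference here is always larval minus adult. A gene was called when limma gave a Benjamini-Hochberg adjusted p below 0.05 over all probe sets tested and the change was at least 2-fold. The median signal lay between 9.50 and 10.6 on the larval arrays and between 10.1 and 11.8 on the adult arrays. Log2 values correlated between 0.987 and 0.991 within the larval group, and between 0.990 and 0.991 within the adult group, while no pair across the stages exceeded 0.924.

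Of 12308 probe sets tested, 884 were higher in the larval hindgut (7.18%) and 1015 were lower (8.25%). Counted by gene, each gene taken at its brightest probe set, 741 of 9179 tested genes were higher in the larva (8.07%) and 827 were lower (9.01%), and the median log2 difference was 0.03. The 4 larval and the 4 adult arrays did not overlap for 1553 of the 1568 called genes, against 5025 (54.7%) of all genes tested. In bulk tissue, fewer cells of a type and less RNA per cell cannot be told apart. Differences of at least 16-fold were found for 56 genes higher and 45 genes lower in the larva.

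**Figure D1:**
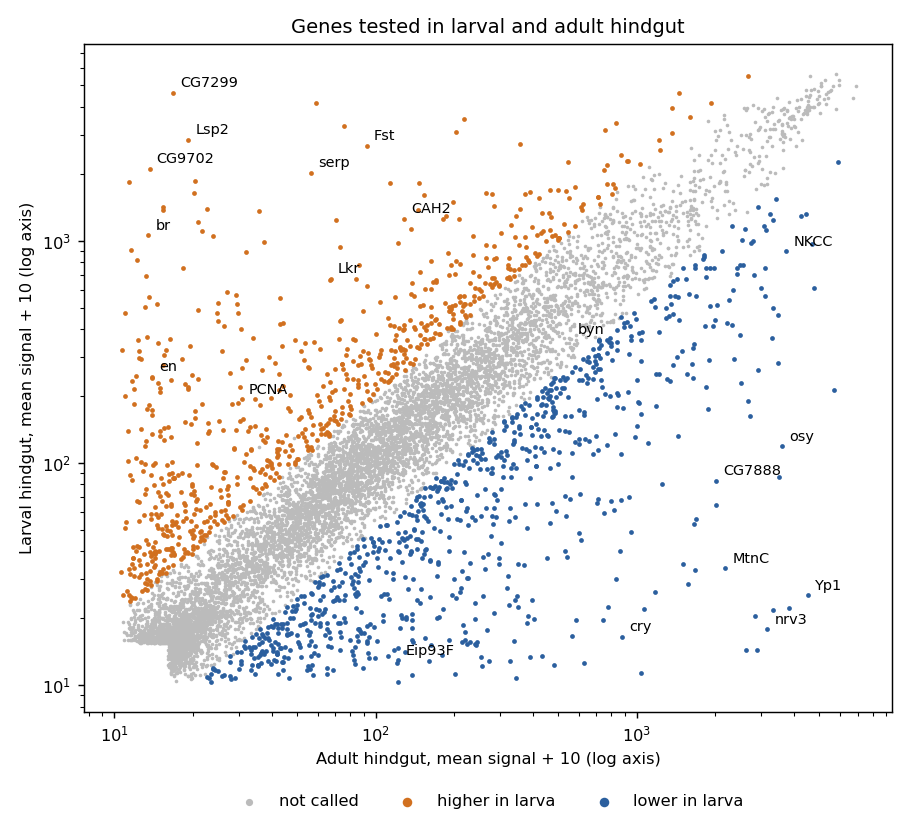
Mean signal plus 10 in the adult hindgut (horizontal, log axis) against the larval hindgut (vertical, log axis), 4 arrays each, for the 9179 genes tested. Orange points are the 741 genes called higher in the larva and blue points the 827 called lower, with named examples such as CG7299 at the upper left and nrv3 at the lower right.

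Both tissues carried the markers of hindgut identity. The signals of byn, the brachyenteron gene, were 346, 344, 363 and 352 on the larval arrays and 554, 488, 573 and 578 on the adult arrays. All 8 arrays stood far above the other 32 groups of the atlas, of which the highest, the wandering larval fat body, had a mean of 21. The adult arrays were all above the larval ones, but the log2 difference of -0.63 ± 0.08 (SE) was under 2-fold and byn was not called. The homeobox gene otp, which acts in the hindgut under byn in the embryo, had larval signals of 135, 146, 166 and 169 and adult signals of 90.6, 86.1, 89.1 and 96.1. Its highest level elsewhere was 18.7, in the thoracoabdominal ganglion, and its log2 difference of 0.70 ± 0.09 was likewise under 2-fold. The forkhead factor fkh, with means of 315 and 452, and the caudal gene cad, with means of 519 and 442, were not called either. These 2 genes are not particular to the hindgut: fkh reached 804 in the adult salivary gland and cad reached 2489 in the feeding larval Malpighian tubule.

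Among 33 measured genes that specify or pattern the hindgut, 28 were tested, 2 were higher in the larva, 3 were lower, and the median log2 difference was -0.13. Together the called genes made up a share close to the 17.1% called over all genes. The engrailed gene en marks the dorsal wall of the hindgut tube in the embryo. Its larval signals were 213, 228, 235 and 262, and its adult signals were 1.54, 5.69, 3.14 and 5.54. All larval arrays were high and all adult arrays were near background, a log2 difference of 4.13 ± 0.12 (adjusted p = 5.7e-09). Its neighbour and paralogue inv had means of 73.6 and 1.71 and a log2 difference of 2.83 ± 0.14 (adjusted p = 2.1e-07). The hedgehog signal hh went the other way, with larval signals of 67.9, 63.1, 47.2 and 55.9 and adult signals of 195, 162, 169 and 153. The groups did not overlap, and the log2 difference was -1.40 ± 0.11 (adjusted p = 6.3e-06). Dr, a homeobox gene of the Msx family, was lower in the larva by log2 -2.16 ± 0.13, and the EGF receptor inhibitor aos by log2 -1.01 ± 0.11. Of the homeotic genes of the body axis, 4 were tested and only Antp was called, with means of 14.2 in the larva and 62.4 in the adult.

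**Figure D2:**
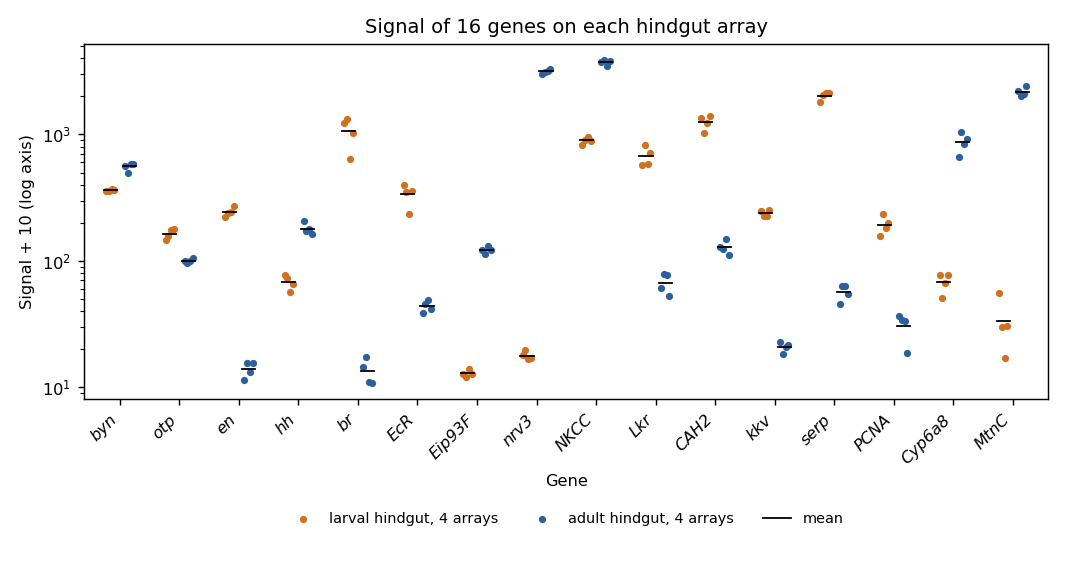
Signal plus 10 (vertical, log axis) of 16 genes on each of the 4 larval (orange) and 4 adult (blue) hindgut arrays, with the group mean as a black line. The stages stay apart for all 16 genes, by less than 2-fold for byn and otp and by much more for en, br and nrv3.

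The widest larval excess belonged to CG7299, a gene with no role named here. Its larval signals were 4751, 4614, 4556 and 4602, and its adult signals were 7.51, 7.19, 4.96 and 7.67. Bright on every larval array, it was at background in the adult, with a log2 difference of 8.11 ± 0.08 (adjusted p = 2e-11). The larval hindgut had the highest mean of any dissected tissue in the atlas for CG7299, and also for CG9021 and CG9269, 2 more of the 15 genes with the widest larval excess. CG9702, a predicted anion transporter of the SLC26 family, had means of 2102 and 3.64 (log2 7.27 ± 0.09). CG4367 (log2 7.31 ± 0.15) and CG7714 (log2 6.36 ± 0.17) were among them as well, and both were brighter still in the larval midgut. The rest of the 15 were the cuticle genes Lcp65Aa, Cpr49Ag and Cpr47Eb, the ecdysone response gene br, the uncharacterised CG17738 and CG32249, and the fat body genes Lsp2, Fbp1 and Obp99b, which are described with the other tissues below.

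In the adult the widest excess was that of CG12990, with means of 4.33 in the larva and 2882 in the adult (log2 -7.67 ± 0.12, adjusted p = 1.8e-10). CG33258 had larval signals between 0.618 and 8.17 and adult signals of 2256, 2807, 2627 and 2709. CG34109 had larval signals of 0.803, 1.69, 1.85 and 0.835 and adult signals of 948, 1093, 1047 and 1039. Both were at background on every larval array and brighter in the adult hindgut than in any other dissected tissue. Other leading adult genes were the sodium pump subunit nrv3, the blue-light photoreceptor gene cry (means of 6.53 and 868), the metallothionein MtnC, Jhbp12 and Jhbp3 of the juvenile hormone binding protein family, the odorant-binding protein gene Obp18a, the RING finger gene Rnf11, the uncharacterised CG11550 and CG7781, and the yolk protein genes Yp1, Yp2 and Yp3.

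A stricter description counted genes that reached the array mean of 100.0 on all 4 arrays of a stage and stayed below 10 on all 4 arrays of the other. There were 34 such genes on in the larval hindgut and 26 on in the adult hindgut. Of the 34 larval genes, 6 reached 100.0 in none of the 9 other larval groups, among them en, neo and CG9269. Of the 26 adult genes, 4 reached it in none of the 20 other adult tissue groups: CG33258, CG34109, the alkaline phosphatase gene Alp2 and dyw. Alp2 had larval signals of at most 6.26 and adult signals of 359, 307, 288 and 748, so that 1 adult array stood well above the others.

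No other list held as many genes called higher in the larva as the cuticle proteins, which form 1 of the longest lists. By share of tested genes, 2 lists described below stood higher, the hemocyte genes (11 of 19) and the apical matrix genes (5 of 11). Over all genes tested the share called higher was 8.07%. Of 89 measured cuticle protein genes, 61 were tested, 26 were higher in the larva and 7 were lower, and the median log2 difference was 0.70, against 0.03 over all genes tested. Lcp65Aa, a larval cuticle protein gene, had larval signals of 573, 659.6, 992 and 1016 and adult signals of at most 4.64 (log2 6.03 ± 0.19, adjusted p = 1.2e-08). Cpr49Ag had larval signals of 1088, 1316, 1899 and 1195 and adult signals between 9.44 and 15.7. The larval arrays varied among themselves for these genes, and none came near the adult range. Cpr49Ae, Cpr49Af and Cpr49Ag are adjacent among the genes measured, and all were higher in the larva. The adult hindgut had cuticle genes of its own. Cpr67B was the brightest of the list there, with larval signals of 685, 646, 695 and 733 and adult signals of 2998, 2698, 2625 and 2906 (log2 -2.01 ± 0.08). Cpr62Ba was near background in the larva, at 9.82 on average, and reached 230 in the adult hindgut, its highest level in any dissected tissue (log2 -3.60 ± 0.14).

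The enzymes that make and modify chitin, the polysaccharide of the cuticle, followed the same course. Of 30 measured genes, 27 were tested, 11 were higher in the larva and 2 were lower, with a median log2 difference of 0.25. The chitin synthase gene kkv had larval signals of 240, 216, 217 and 244 and adult signals of 12.7, 8.25, 11 and 11.8 (log2 3.52 ± 0.09, adjusted p = 2.8e-09). The chitin deacetylase gene serp had larval signals of 1801, 2034, 2111 and 2102 and adult signals of 35.9, 53.6, 52.8 and 44.9, and its relatives verm (means of 1039 and 13.9) and Cda4 (means of 225 and 1.66) behaved alike. Each of these 4 genes was low on every adult array. The chitinase genes Cht2, Cht5, Cht6, Cht7 and Cht10 and the chitin-binding gene obst-A were also higher in the larva, whereas the chitinase gene Cht4 (log2 -2.11 ± 0.10) and the chitinase-like growth factor gene Idgf1 (log2 -1.43 ± 0.10) were lower. The chitinase-like genes Idgf3, Idgf4 and Idgf6 were bright in both stages, with larval means of 1431, 3191 and 1792 and adult means of 2149, 3893 and 2982, and were not called.

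Proteins of the apical matrix, which joins the cell surface to the cuticle, showed a one-sided shift. All 11 measured genes of that list were tested, 5 were higher in the larva and 0 were lower by limma, against 7 higher and 2 lower at an unadjusted p below 0.05, and the median log2 difference was 0.94. The genes neo (means of 351 and 6.27), tyn (654 and 57.1), zye (82.2 and 2.82) and dyl (27.5 and 1.78) encode zona pellucida domain proteins that shape the larval denticles, and fw (462 and 19.8) encodes a selectin-like membrane protein. The larval hindgut was the tissue with the highest mean for neo, tyn and dyl. For dpy, the giant matrix protein dumpy, the means were 178 and 144, and it was not called. Tracheal markers, which share chitin genes with these lists, are given with the other cell types below.

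**Figure D3:**
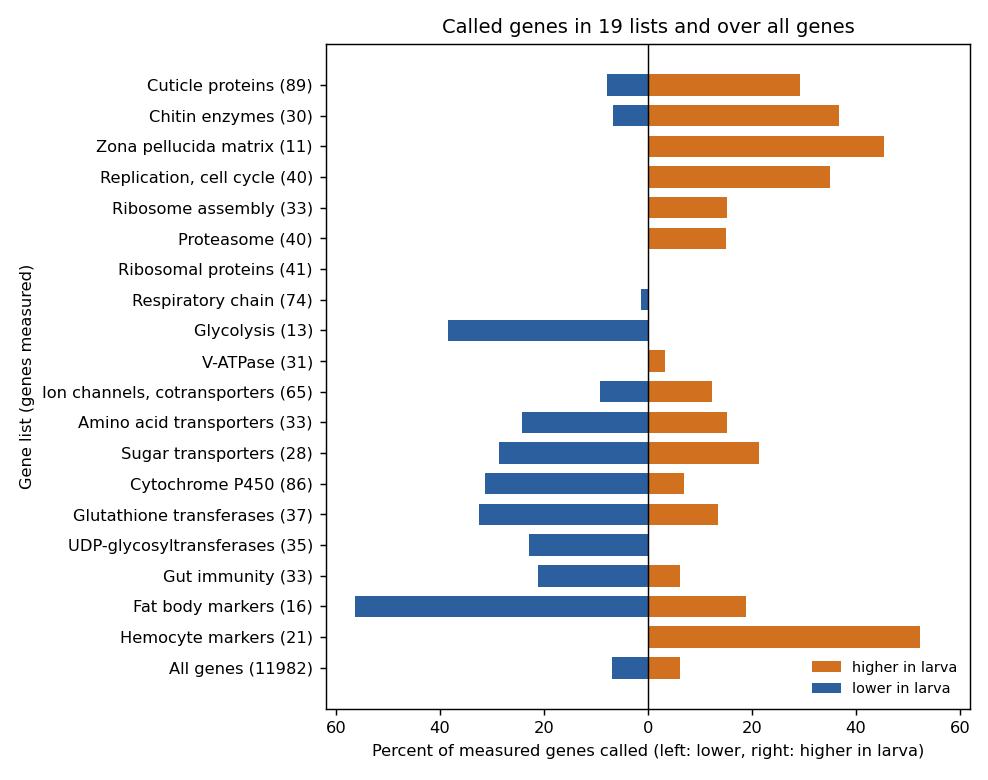
Percent of the measured genes of 19 lists, and of all 11982 genes, that were called higher (orange, to the right) or lower (blue, to the left) in the larval hindgut; the number measured is in brackets. Cuticle, chitin, matrix, replication and hemocyte lists lie mostly to the right, and glycolysis, detoxification and fat body lists mostly to the left.

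Genes of DNA replication and the cell cycle were higher in the larval hindgut wherever they were called. Of 40 tested, 14 were higher and 0 were lower by limma, against 31 and 5 at an unadjusted p below 0.05, and the median log2 difference was 0.78. The count rests on weak signals: with a pseudocount of 2.00 it was 23 genes and with 40.0 it was 5. The sliding clamp gene PCNA had larval signals of 148, 223, 173 and 188 and adult signals of 26.8, 24.3, 23.4 and 8.55 (log2 2.69 ± 0.22, adjusted p = 5.4e-06). RnrL, the large subunit of ribonucleotide reductase, had means of 183 and 24.7. The helicase subunit genes Mcm2, Mcm3, Mcm5, Mcm6 and dpa, the licensing genes Cdc6 and dup, and CycE, which drives entry into S phase, were also higher, at larval means between 31.0 and 80.8. These are low signals: of the 14 genes, only PCNA, RnrL and RPA2 passed the array mean of 100.0 in the larva. The fzr gene, an activator of the anaphase-promoting complex that carries cells into endocycles, had means of 196 and 310 and was not called.

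Factors of ribosome assembly were called in 5 of 33 genes, a share close to the 17.1% called over all genes. By limma all 5 were higher in the larva, against 19 higher and 5 lower at an unadjusted p below 0.05. The median log2 difference was 0.36. Fibrillarin, encoded by Fib, had larval signals of 96.2, 289.8, 210.2 and 224 and adult signals of 63.1, 58.9, 77.3 and 64.9. The larval array of replicate 1 was the lowest, as it also was for Nopp140 (215 against 424 to 493), Nnp-1 (205 against 359 to 448) and Nop60B (103 against 189 to 285). Each of the 4 genes still had every larval array above every adult array. By contrast 0 of 37 tested ribosomal protein genes were called by limma, against 1 higher and 23 lower at an unadjusted p below 0.05, with a median log2 difference of -0.19. The proteasome list had 6 of 28 tested genes higher in the larva and 0 lower by limma, against 26 and 2 at an unadjusted p below 0.05, and its median log2 difference of 0.87 was close to the 2-fold limit. The ATPase subunit gene Rpt4 had larval signals of 1284, 1321, 793 and 971 and adult signals of 434, 422, 445 and 405 (log2 1.31 ± 0.15), and Rpn2, Prosalpha7, Rpn12, Prosalpha4 and Rpn11 were called with smaller differences. Without the larval array of replicate 2 the count was 3.

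The steroid ecdysone times moulting and metamorphosis through a nuclear receptor, and juvenile hormone sets which stage a moult leads to. Of 29 tested genes of both hormones, 5 were higher in the larva and 4 lower. The receptor gene EcR had larval signals of 386, 342, 225 and 349 and adult signals of 28.8, 36.0, 39.1 and 31.7 (log2 2.91 ± 0.16, adjusted p = 4.1e-07). Its partner usp had means of 168 and 124 and was not called. The zinc finger gene br had larval signals of 1229.5, 1307, 630.3 and 1025 and adult signals of 4.61, 7.53, 0.937 and 0.789 (log2 6.27 ± 0.24, adjusted p = 3.9e-08). Both genes were lowest on the larval array of replicate 3, which remained far above all adult arrays. The gene chinmo, a juvenile hormone target that maintains larval fate in other tissues, had means of 139 and 9.60, and shd, whose product makes the active form of ecdysone, had means of 130 and 19.2.

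In the adult the nuclear factor gene Eip93F, which promotes adult fates, was higher. Its larval signals were 2.86, 2.02, 4.05 and 2.78 and its adult signals 112, 104, 120.3 and 112 (log2 -3.24 ± 0.08, adjusted p = 2.4e-09). The nuclear receptor gene ftz-f1 was higher in the adult, with means of 20 and 107, as were Jheh2, which encodes a juvenile hormone epoxide hydrolase (553 and 1391), and Jhbp1 (165 and 1869). The juvenile hormone response gene Kr-h1 had larval signals of 138, 106, 135 and 119 and adult signals of 264, 228, 227 and 256. The stages did not overlap, but its log2 difference of -0.92 ± 0.10 fell short of 2-fold.

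Genes of ion transport differed between the stages in some families more than in others. The V-ATPase is a proton pump of many subunits. Of 24 tested subunit genes only Vha100-5 was called (means of 1317 and 423), and Vha26 (5111 and 5075) and VhaPPA1-1 (4511 and 4578) were bright in both stages. Of 4 tested genes of the sodium pump, 1 was called. The beta subunit gene nrv3, best known from neurons, had larval signals of 7.87, 9.68, 6.76 and 6.97 and adult signals of 3018, 3109, 3168 and 3279.6. It was at background on every larval array and bright on every adult array (log2 -7.47 ± 0.08, adjusted p = 2.2e-11). The beta subunit genes nrv1 (2278 and 2922) and nrv2 (227 and 122) were present in both stages and were not called. In the same arrays 3 of 11 tested neuronal genes were lower in the larva and 0 were higher. Beside nrv3 these were elav, with means of 27.5 and 76.7, and nSyb, with means of 1.84 and 20. Other neuronal genes did not share this adult excess, such as Snap25 (3.95 and 5.08), ChAT (6.97 and 6.49) and Csp (736 and 457). The adult hindgut mean was 82.8% of that in the adult brain for nrv3, 10.4% for elav and 0.192% for Snap25. The part of neuronal RNA in the nrv3 result was not tested.

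Of 47 tested genes of ion channels, cotransporters and exchangers, 8 were higher in the larva and 6 were lower, with a median log2 difference of 0.07. The sodium-potassium-chloride cotransporter gene NKCC had larval signals of 822, 900.0, 950.2 and 873 and adult signals of 3724, 3859, 3470.2 and 3808 (log2 -2.06 ± 0.08, adjusted p = 3.2e-08). The adult hindgut was its highest tissue in the atlas, ahead of the adult salivary gland. The potassium-chloride cotransporter gene kcc went the other way, with larval signals of 504, 491, 530 and 491 and adult signals of 145, 162, 135 and 126 (log2 1.76 ± 0.09). Exchangers were divided too. The antiporter genes Nha1 (1157 and 3064) and Nha2 (742 and 1654) were lower in the larva, and both had their highest tissue mean in the adult hindgut. The sodium-proton exchanger gene Nhe2 (85.7 and 14.4) was higher in the larva.

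Among channels, the inward rectifier potassium channel gene Irk1 was higher in the larva (302 and 83.4, or log2 0.90 and not called over all its probe sets) and Irk3 was lower (4.92 and 48.8). Irk2, the brightest of the family in both stages, had means of 3856 and 4564 and was not called. The chloride channel gene subdued (492 and 153), the Cftr gene (102 and 32.0) and the potassium leak channel gene Ork1 (414 and 165) were higher in the larva. So was ppk6 of the epithelial sodium channel family, with larval signals of 163, 35.1, 174 and 133 and adult signals of at most 20.2. Its larval array of replicate 2 lay far under the other 3, yet above the adult range.

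Carbonic anhydrases, which form bicarbonate and protons, were called in both directions. CAH2 had larval signals of 1348, 1024, 1229 and 1392 and adult signals of 118, 115, 138 and 102 (log2 3.29 ± 0.12, adjusted p = 2.8e-08). CAH9 (349 and 941) and CAH7 (176 and 364) were lower in the larva, and CAH1 (3962 and 2907) was bright in both stages and not called. The aquaporin gene Prip was higher in the larva, at 1815, 1755, 1641 and 1743 against 630.3, 559, 519 and 574 (log2 1.59 ± 0.08). Averaged over all its probe sets the difference was 0.96 and was not called. The water channel gene Drip had means of 938 and 466 and, at a log2 difference of 0.98 ± 0.12, just missed the 2-fold limit; without any 1 of 5 of the 8 arrays it was called, at most at 1.03. Of 17 tested hormone receptor genes reported in gut, 1 was higher in the larva and 1 lower, a share below the 17.1% called over all genes. Lkr, the receptor of the diuretic peptide leucokinin, had larval signals of 561, 818, 578 and 706 and adult signals of 50.8, 68.1, 67.9 and 43.0 (log2 3.33 ± 0.16, adjusted p = 1.9e-07). The larval hindgut was its highest tissue in the atlas. CCHa1-R was lower in the larva (10 and 36.9), and Dh44-R2, a receptor of the diuretic hormone Dh44, had means of 141 and 122 and was not called.

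Nutrient transporters moved in both directions. Of 27 tested genes for amino acid and peptide transporters, 5 were higher in the larva and 8 lower, with a median log2 difference of -0.24. The predicted transporter gene CG7888 had larval signals of 41.7, 132, 51.0 and 67.1 and adult signals of 2073, 2059.8, 1949 and 1899 (log2 -4.71 ± 0.27, adjusted p = 5.1e-07). CG43693 (51.3 and 811), NAAT1 (156 and 1026), CG5535 (224 and 1331) and List (36.9 and 268) were lower in the larva as well, and CG7888 and List had no brighter tissue than the adult hindgut. The genes gb (104 and 23.5), CG8785 (399 and 130) and JhI-21 (157 and 64.5) were higher in the larva. The transporter gene ine, whose loss disturbs water balance in flies, had means of 2420.3 and 2378 and was not called.

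Of 25 tested sugar transporter genes, 6 were higher in the larva and 8 lower, with a median log2 difference of -0.73. The trehalose transporter gene Tret1-1 had means of 405 and 1821, sut1 of 167 and 874, and Glut1 of 44.7 and 149. The predicted transporter CG31100 was higher in the larva, at 1637, 1728, 1680.3 and 1711 against 477, 453, 418 and 468. Of 26 tested genes of metal handling, 4 were called, a share close to the 17.1% called over all genes, and MtnC was among the 4. This metallothionein gene had larval signals of 46.1, 20.1, 7.17 and 20.8 and adult signals of 2184, 2014, 2094 and 2390.0 (log2 -6.15 ± 0.29, adjusted p = 1.5e-07). Its relative MtnA was bright in both stages, with means of 4358 and 6718, and was not called. Ferritin subunit genes Fer1HCH (2793 and 3147) and Fer2LCH (2235 and 2889.9) were not called either.

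In energy metabolism most calls fell in glycolysis. Of 12 tested genes, 5 were lower in the larva and 0 higher by limma, against 11 and 1 at an unadjusted p below 0.05, and the median log2 difference was -0.72. Hexokinase, the entry step, was represented by Hex-A, with larval signals of 122, 107, 146 and 140.3 and adult signals of 493, 513, 528 and 547 (log2 -1.94 ± 0.10), and by Hex-C (5.68 and 220). Pgi (698 and 2419), Pfk (363 and 945) and Pgk (743 and 1495) followed. The later enzymes Gapdh1 (2099.9 and 2996), Tpi (2038 and 3226) and Eno (1904 and 3133) had lower means in the larva but were not called. Few genes of the respiratory chain and the citric acid cycle reached the 2-fold limit. COX7AL2 (6.64 and 553), 1 of 64 tested, and Idh (1525 and 3397), 1 of 14 tested, were lower in the larva, and the median log2 differences of the lists were -0.25 and -0.19. COX7AL2 was far brighter in adult thoracic muscle, with a mean of 18802. Its log2 stage difference was -5.10 in the hindgut and -6.46 in the whole animal. The part of muscle RNA in this call was not tested. At an unadjusted p below 0.05, whatever the fold, 40 respiratory chain genes were lower in the larva and 2 higher, and 9 citric acid cycle genes were lower and 2 higher. The ATP synthase genes blw (4737 and 4630.1) and ATPsynbeta (3899.9 and 4465) were bright in both stages.

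Among detoxification genes more were called higher in the adult than in the larva. Of 86 measured cytochrome P450 genes, 71 were tested, 6 were higher in the larva and 27 were lower, or 17 with a pseudocount of 40.0, with a median log2 difference of -0.74. Cyp6a8 had larval signals of 66.7, 40.6, 56.8 and 67.3 and adult signals of 656, 1029, 834 and 913 (log2 -3.68 ± 0.17, adjusted p = 1.3e-07). Cyp312a1 was at background in the larva, at most 1.15, and reached 362, 359, 208 and 413 in the adult. Cyp6d5 was the brightest of the adult set, with means of 365 and 2464. In Cyp6a17 the larval arrays disagreed, at 489, 7.35, 30.3 and 1.84 against 376, 429, 516 and 314 in the adult. Its groups overlapped through the larval array of replicate 1, and it was called all the same (log2 -3.19 ± 0.99, adjusted p = 0.021). Without the larval array of replicate 2 or of replicate 4 the call was lost, at log2 -2.73 and -2.55. Higher in the larva were Cyp4d1 (121 and 4.92), Cyp9h1 (284 and 84.1), Cyp6a13, Cyp9c1, Cyp305a1 and the ecdysone enzyme gene shd.

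Of 34 tested glutathione transferase genes, 5 were higher in the larva and 12 lower. GstD2 had larval signals of 919, 997, 457 and 489 and adult signals of 106, 137, 180.0 and 127 (log2 2.24 ± 0.27), and no dissected tissue had a higher mean than the larval hindgut. GstD10 (175 and 18.3) was also higher, whereas GstE6 (970 and 2738), GstT4 (765 and 2542) and GstE3 (277 and 1032) were lower. GstD1, the brightest of the family, had means of 3499.6 and 3481 and was not called. The UDP-glycosyltransferases had 8 of 27 tested genes lower in the larva and 0 higher by limma, against 18 and 2 at an unadjusted p below 0.05. Ugt49C1 led them, with larval signals of at most 4.26 and adult signals of 322, 327, 259 and 362.

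Of 31 tested genes of gut immunity, 2 were higher in the larva and 7 lower. The dual oxidase gene Duox, whose product makes hydrogen peroxide at cuticle and gut surfaces, had larval signals of 127, 195, 130.5 and 145 and adult signals of 6.77, 9.95, 12.8 and 11.7 (log2 2.96 ± 0.15, adjusted p = 2e-07). The recognition protein gene PGRP-LA (154 and 620), GNBP2 (25.2 and 163) and the catalase gene Cat (313 and 827) were lower. Of 11 tested antimicrobial peptide genes, AttD (548 and 198) and Drsl2 were higher and BomS2 and Drsl4 were lower. AttD overlapped between the stages through the adult array of replicate 3, at 414. Of 17 tested heat shock and stress genes, 2 were higher in the larva and 2 lower. The small heat shock protein gene Hsp27 had larval signals of 544, 561, 199 and 393 and adult signals of 12.3, 18.0, 14.7 and 14.8 (log2 4.02 ± 0.28, adjusted p = 2.2e-06), and Hsp68 was higher with means of 88.7 and 32.6, a call lost without the larval array of replicate 2 (log2 0.91) or 4 (log2 0.90). The lower genes were Hsc70-1 (7.65 and 44.5) and TotC (7.37 and 46.1). The constitutive Hsc70-4 had means of 4978 and 5078.

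Of 29 tested genes of septate junctions, which seal the epithelium, 5 were called, a share close to the 17.1% over all genes. Among them l(2)gl (1032 and 363), Nrx-IV (556 and 249), crok (620 and 287) and pasi1 (223 and 103) were higher in the larva and wun (208 and 516) was lower. The smooth septate junction genes Ssk (1125 and 1428) and hoka (660.2 and 1093) had log2 differences under 1 in size and were not called.

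Some genes listed as markers of other cell types had signal in both stages, and some differed between the stages. All 16 measured fat body and yolk genes were tested, 3 were higher in the larva and 9 were lower, and their summed signal ran from 8459 to 13341 on the larval arrays and from 20523 to 21705 on the adult arrays. Without Yp1, Yp2 and Yp3 the sums of the other 13 genes overlapped, at 8454 to 13298 in the larva and 9648 to 10237 in the adult. These sums still held Lsp2, Fbp1 and Fbp2, the 3 genes higher in the larva. Their overlap therefore does not show equal amounts of fat body RNA in the stages. None of the 16 was below 10 on all 8 arrays. The larval storage protein gene Lsp2 had larval signals of 2150.0, 4279, 1933 and 3011 and adult signals of at most 12.1. Its larval hindgut mean was 31.3% of that in the feeding larval fat body. Fbp2 had larval signals of 296, 1635, 166 and 629, Fbp1 of 1083, 1202, 326 and 992, and Obp99b of 1025, 3584, 684 and 2069. For all 4 genes the larval array of replicate 2 was the highest and that of replicate 3 the lowest. The yolk protein gene Yp1 had larval signals of at most 24.2 and adult signals of 4658, 4409, 4297 and 4673, with an adult hindgut mean of 99.6% of that in the adult fat body. Yp2 stood at 63.6% and Yp3 at 89.4% of the adult fat body, while fit, a gene of the adult female fat body of the head, stood at 0.812%. The lipoprotein gene apolpp had equal means of 1661 and 1662, and was not called. The part of fat body RNA in the other results was not tested.

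**Figure D4:**
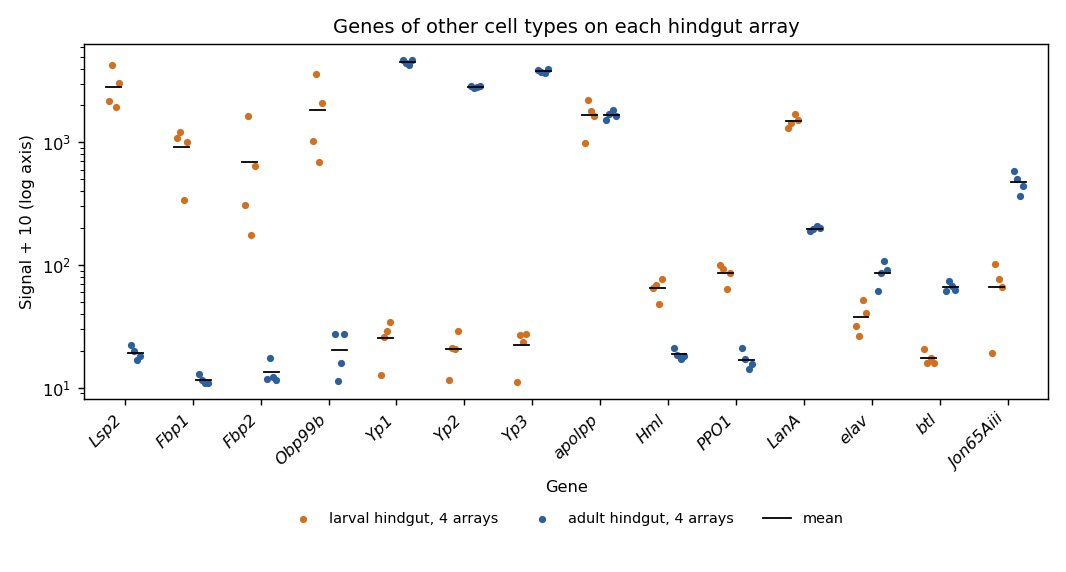
Signal plus 10 (vertical, log axis) of 14 genes of other cell types on each of the 4 larval (orange) and 4 adult (blue) hindgut arrays, with the group mean as a black line. Larval Lsp2, Fbp1, Fbp2 and Obp99b spread widely between arrays, Yp1, Yp2 and Yp3 lie close together on the adult arrays, and apolpp overlaps between the stages.

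Of 21 measured hemocyte and basement membrane genes, 19 were tested, 11 were higher in the larva and 0 lower by limma, against 17 and 1 at an unadjusted p below 0.05, and the summed signal ran from 5723 to 6732 in the larva and from 2326 to 2481 in the adult. The laminin genes LanA (1476 and 188), LanB1 (1069 and 291) and LanB2 (1404 and 603) held most of that sum in the larva. No dissected tissue was brighter than the larval hindgut for LanB1 and LanB2, so the sum is not a measure of hemocyte RNA alone. The defining hemocyte genes were low: Hml had means of 54.7 and 8.71, NimC1 of 21.1 and 5.89, and eater of 22.2 and 0.592. The prophenoloxidase genes PPO1 (75.8 and 6.88) and PPO2 (144 and 15.1) were higher in the larva. Of 13 tracheal genes, 4 were higher in the larva (Cht2, uif, Gasp and vvl) and 2 lower (Mipp1 and btl), and the summed signal ran from 5027 to 5607 and from 4533 to 4759.6. The tracheal genes Gasp (1031 and 332), uif (268 and 64.5) and vvl (46.7 and 17.3) went with the chitin genes, and btl (7.40 and 56.3) and Mipp1 (267 and 1367) went the other way. The part of tracheal tissue in the chitin result was not tested.

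Midgut digestive genes, of which 27 of 35 were tested, had summed signals of 1914 to 2557 in the larva and 4475 to 5146 in the adult, against 122851 and 140083 in the larval and adult midgut. Of these, 2 were higher in the larva and 8 lower, and Jon65Aiii had larval signals of 9.18, 92.3, 66.6 and 56.6 and an adult mean of 463, which is 6.89% of the adult midgut. Neuronal genes were tested in 11 of 18 cases, of which 0 were higher in the larva by limma and 3 lower (nrv3, elav and nSyb), against 1 and 4 at an unadjusted p below 0.05. They had summed signals of 1004 to 1176 in the larva and 3845 to 4127 in the adult, and without nrv3 sums of 994 to 1169 and 827 to 922. Most of the sums without nrv3 came from Csp (means of 736 and 457) and Rbp9 (246 and 222). Rbp9 had a mean of only 14.1 in the larval central nervous system, so these sums are a poor measure of neuronal RNA. Of 16 tested tubule genes, 4 were higher and 3 lower, among them Fst, at 2977, 3139, 2168 and 2403 in the larva and 61.4 to 91.0 in the adult. Of 23 tested muscle genes, 2 were higher (sls and Act87E) and 2 lower (Mlc2 and TpnC41C), a share close to the 17.1% called over all genes. The summed signal of the muscle genes was higher on every larval array, at 36132 to 39229 against 30077 to 30801. The probe sets of sls were called in opposite directions, the only gene for which that was so. The 15 tested genes of germline and reproductive tract gave 1 call each way and sums of 486 to 769 and 318 to 467, and the 8 tested salivary gland and imaginal disc genes gave 0 calls by limma, against 3 higher and 2 lower at an unadjusted p below 0.05. The part of these cell types in the results above was not tested.

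Whether a stage difference in the hindgut departed from that in the midgut, the adjoining gut segment, was tested with 4 larval and 4 adult midgut arrays. Such a departure does not make a difference particular to the hindgut. The log2 stage difference of Lcp65Aa was 6.03 in the hindgut and 6.24 in the carcass, and that of CG32249 6.38 and 7.92. For Cpr47Eb it was 5.68 in the hindgut and 8.22 in the trachea. For CG9702 it was 7.27 in the hindgut, -0.09 in the carcass and -0.70 in the trachea. The difference between the stage differences was called for 1716 of 9857 genes (17.4%), of which 847 had a greater larval excess in the hindgut (8.59%) and 869 a smaller one (8.82%). Counted by probe set, 989 of 13679 were greater (7.23%) and 1034 smaller (7.56%). Across the genes tested in the hindgut, the 2 stage differences had a Pearson correlation of 0.34, a description across genes that share the arrays of each tissue. For 3 genes of the ecdysone response no departure from the midgut was called. The hindgut difference minus the midgut difference was 0.65 ± 0.48 on the log2 scale for br, -0.03 ± 0.37 for EcR and -0.34 ± 0.17 for Eip93F. The gene CG4367 was likewise higher in the larva in both segments. The hindgut patterning gene en and genes of transport and of the cuticle were among those that departed from the midgut. For en the departure was 3.82 ± 0.15 (adjusted p = 7.4e-12) and for serp 3.96 ± 0.22. The cotransporter gene NKCC departed by -2.61 ± 0.16, Prip by 2.82 ± 0.17 and CAH2 by 5.57 ± 0.32. CAH2 was higher in the larva in the hindgut and higher in the adult in the midgut, where its means were 129 and 625.

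By list, 26 of 67 tested cuticle genes had a greater larval excess in the hindgut than in the midgut and 11 a smaller one, and for replication and cell cycle 13 of 40 were greater and 1 smaller. Cytochrome P450 genes were divided, with 11 of 77 greater and 24 smaller. Fat body genes departed in 15 of 16 cases, 3 greater and 12 smaller, so the fat body markers moved with stage in the hindgut arrays beyond their movement in the midgut arrays. Their part in the departures of other genes was not tested.

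**Figure D5:**
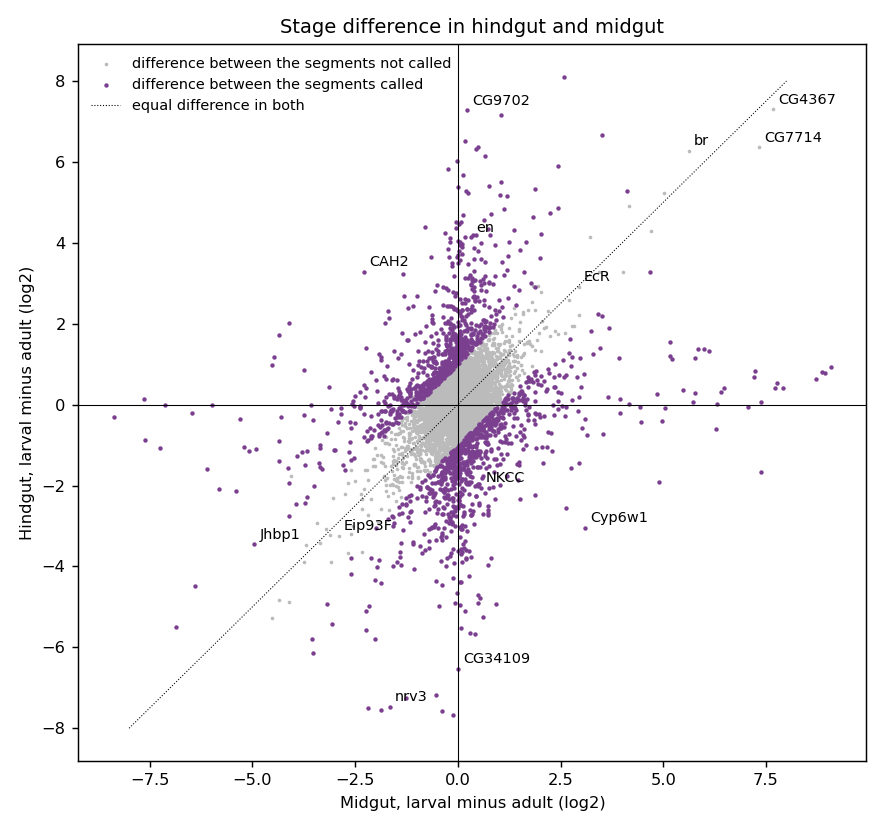
Larval minus adult log2 difference in the midgut (horizontal) and in the hindgut (vertical) for the genes tested in the hindgut; purple points are genes whose difference between the segments was called, and the dotted line marks equal differences. The genes br, EcR and Eip93F lie near the dotted line, whereas CG9702, en, nrv3 and CG34109 differ by stage more in the hindgut than in the midgut.

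Against whole feeding larvae and whole flies the hindgut departed more often, in 4144 of 10741 genes (38.6%), with 2695 greater (25.1%) and 1449 smaller (13.5%). Counted by probe set, 3080 of 14114 were greater (21.8%) and 1740 smaller (12.3%). That split depended on scaling: 63.9% of the called probe sets were greater as scaled, and 50.1% after quantile normalization, which moved the median difference from 0.19 to 0.00 on the log2 scale. Replication and cell cycle genes had a greater larval excess in the hindgut than in the whole animal in 34 of 40 cases. For PCNA the whole-animal means were 183 in larvae and 704 in flies, the reverse of the hindgut order, and the departure was 4.58 ± 0.24. Genes of the accessory gland, reproductive ducts and germline were greater in 23 of 28 cases, with a median of 5.37. Reproductive RNA of whole flies thus moved with this comparison, and its part was not tested. In the other direction 38 of 75 cuticle genes had a smaller larval excess in the hindgut than in the whole animal, against 9 that had a greater one. The genes nrv3 (-5.76 ± 0.14), CG11550 (-6.29 ± 0.25) and CG34109 (-5.29 ± 0.17) had a larger adult excess in the hindgut than in the whole animal, and CG9702 (6.48 ± 0.23) and Hsp27 (5.20 ± 0.32) a larger larval one.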

How the data were processed

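Gene expression was measured on Affymetrix arrays. The authors deposited 1 linear intensity (signal) for each probe set and array, and the software that made it is not given in the sources used here. On the deposited values each array had a mean of 100.0 after 2.0% of probe sets were trimmed at each end. Here 183 control probe sets were left out and 18769 analysed. Of these, 13647 carried 1 gene symbol, 402 several and 4720 none in the platform annotation, and 11982 genes were taken at their brightest probe set. Values were log2(signal + 10). Probe sets were kept where a group mean reached the 40th percentile, and were tested with limma 3.58.1 in R 4.3.3 (lmFit, eBayes, Benjamini-Hochberg adjustment), a procedure that was tested on simulated data. A departure from the midgut or from the whole animal is the interaction of stage and tissue over 16 arrays. The number of arrays limits the precision. The members and gene lists were chosen with earlier results of these data known. The genes with the widest differences each way and leading members of each list were named by rule, and the other genes named were chosen after their values were seen. No 2 hindgut arrays were identical. Same-numbered hindgut arrays of the 2 stages did not deviate together (r from -0.03 to 0.04), so the numbers do not pair them. Each adult hindgut array deviated most like the adult midgut array of its number, though weakly (r from 0.03 to 0.06). In the larva this held for replicates 1, 3 and 4 (r up to 0.13) but not for replicate 2 (r = -0.08). The interaction fit took these arrays as independent. With the replicate number as a block it gave 990 probe sets greater and 1032 smaller against the midgut. Probe sets that match several transcripts cannot separate near-identical genes.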

Additional observations from a re-analysis of the deposited data

Results flagged for a closer look

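The 16 genes below had the widest departures of the hindgut stage difference from the midgut stage difference. They were picked from the genes called by the interaction of stage and tissue, so their calls are not a separate result. On the log2 scale the larval excess was greater in the hindgut by 7.05 for CG9702, 6.33 for CG9269, 6.10 for Lsp2, 6.09 for CG42807, 6.06 for Lcp65Aa, 6.06 for CG17738, 5.88 for CG32249 and 5.88 for Obp99b. It was smaller, with negative differences, for CG12990 (-7.54), Yp1 (-7.18), Yp2 (-6.65), CG34109 (-6.52), Cyp6w1 (-6.15), Obp18a (-6.10), Jhbp12 (-5.99) and Jhbp3 (-5.94). Of these 16 genes, Lsp2, Obp99b, Yp1 and Yp2 are bright in fat body.

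Against the whole animal the 16 widest departures were likewise picked from the called genes. The larval excess was greater in the hindgut for CG9702 (6.48), Hsp27 (5.20), CG7906 (4.91), superdeath (4.84), smg (4.73), CG14292 (4.66), Cpr49Ae (4.63) and PCNA (4.58). It was smaller for CG11550 (-6.29), CG31266 (-6.20), CG4269 (-5.91), nrv3 (-5.76), CG10026 (-5.57), MFS3 (-5.56), CG6867 (-5.36) and CG34109 (-5.29). The highest tissue of superdeath and smg was the adult ovary, which whole flies contain.

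In 22 of 443 groups of 4 arrays of named genes, 1 array stood apart from the other 3 by Dixon's test, which chance does in about 1 group in 20. The array set apart was high in the larval hindgut for CG17104 (58.5 in replicate 4), CG7294 (952 in replicate 1), Cyp6a17 (489 in replicate 1), Cyp6w1 (17.7 in replicate 1), Drip (1159 in replicate 2), Drsl4 (38.2 in replicate 2) and List (46.2 in replicate 4). The array set apart was low in the larval hindgut for CG9021 (3867 in replicate 3), RnrL (154 in replicate 1) and dpa (46.5 in replicate 1). The array set apart was high in the adult hindgut for Alp2 (748 in replicate 4), CG4269 (1039 in replicate 2), CG9021 (146 in replicate 3), Cpr47Eb (18.0 in replicate 1) and per (64.1 in replicate 3). The array set apart was low in the adult hindgut for Cyp9h1 (72.4 in replicate 4), Fst (61.4 in replicate 2), Idgf1 (616 in replicate 3), Idgf4 (3556 in replicate 3), Nop60B (61.3 in replicate 1), nrv1 (2466 in replicate 2) and superdeath (157 in replicate 3).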

How the results depend on the processing

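The counts of called probe sets stayed within 1.5 times of the reported ones, except with a pseudocount of 40.0. That pseudocount gave 546 higher and 642 lower in the larva for the hindgut, 616 greater and 681 smaller against the midgut, and 1776 greater against the whole animal. It gave 89 list members lower in the larva in place of 136. With an upper limit of 20 for the silent stage, 58 larval and 66 adult genes were on in 1 stage only. Leaving out 1 array in turn gave 868 to 914 higher and 995 to 1035 lower in the hindgut, 977 to 1041 greater and 997 to 1070 smaller against the midgut, and 3041 to 3153 greater and 1724 to 1774 smaller against the whole animal. List members ranged from 134 to 147 higher and from 128 to 136 lower. With the replicate number as a block the hindgut counts were 885 and 1015, and the block ended no call of a named gene.

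Of the genes named here, 42 of 205 called ones lost the call under at least 1 setting, 14 of them without 1 array, and none changed direction. Most of the 42 lost it with the pseudocount of 40.0. Among these were elav, nSyb, Hml, eater, Cftr, Irk3, JhI-21, per, CycE, Cdc6, dup, Mcm3, Mcm5 and Mcm6. Causes beyond the settings were not tested. Near the 2-fold limit, aos, CAH7, Pgk, Cyp305a1, pasi1, vvl, TpnC41C, Mlc2 and Drsl2 were lost without single arrays, all at under 2-fold. Averaged over all probe sets, Antp was at -0.82, Cht6 at 0.83, Glut1 at -0.92, uif at 0.96 and sls at 0.52, and none of these was called. The comparison of genes with similar proteins was not run, because protein sequences were not used here. Signals near background limit the folds of genes that are silent in 1 stage.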

Other observations

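Several gene groups outside the comparisons above were written down after their values were seen, so their counts are descriptions. Of 10 genes of the circadian clock, 5 were called, and all 5 were higher in the adult: per, tim, Clk, cyc and cry. The transcription factor gene Clk had larval signals of 2.01, 5.86, 4.4 and 3.92 and adult signals of 121, 114, 118 and 126. The gene tim had larval signals of at most 5.36 and adult signals of 165, 263, 353 and 194, and its adult arrays differed more among themselves than those of Clk. Their target genes vri (means of 218 and 346) and Pdp1 (147 and 259.7) were measurable in both stages and were not called. The labels do not give the hour of dissection.

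More lipid genes were called higher in the adult than in the larva. Of 31 genes for long-chain and surface lipids, 16 were lower in the larva and 1, Fatp3, was higher. The transporter gene osy had larval signals of 126, 114, 86.3 and 109 and adult signals of 3692, 3466, 3438 and 3765. No larval array came near the adult range. The reductase genes spidey (152 and 2704) and wat (486 and 3314) and ACC (331 and 1642), which encodes the committed enzyme of fatty acid synthesis, followed. Of 16 genes for glycerolipids and lipid droplets, 13 were lower in the larva, among them the droplet coat gene Lsd-1 (113 and 1095) and the lipase gene bmm (101 and 556). Fat body markers, a list that holds Lsd-1 and bmm, had summed signals of 8459 to 13341 in the larva and 20523 to 21705 in the adult. Without the yolk genes Yp1, Yp2 and Yp3 the sums overlapped, at 8454 to 13298 and 9648 to 10237. Those sums still held Lsp2, Fbp1 and Fbp2, which were higher in the larva, so they do not show equal amounts of fat body RNA. The part of fat body in the lipid genes was not tested. All 5 tested genes of the pentose phosphate pathway were lower in the larva, with Taldo at 496 and 1902, and 3 of the 5 were with a pseudocount of 40.0. So were 6 of 9 tested genes of peroxisome assembly.

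All 9 tested Bomanin-family and related immune peptide genes were lower in the larva. Bbd had larval signals of 195, 231, 239 and 299 and adult signals of 1429, 1569, 1713 and 1476. Larval genes of the opposite kind were found among peritrophin and mucin genes, with 5 of 15 tested higher in the larva and 1 lower. Peritrophin-15a, which encodes a chitin-binding protein of the peritrophic matrix, had larval signals of 3559, 3459, 3575 and 3532 and adult signals of 229, 190, 226 and 187. Its highest tissue was the larval midgut.

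Called genes that lie next to each other among the measured genes, and changed in 1 direction, formed 27 runs of at least 3 genes. Of these runs 6 were higher in the larva and 21 lower, with 98 genes in all. Over all genes tested 17.1% were called, 741 higher and 827 lower. The number of runs that such shares would give by gene order alone was not worked out, so the runs are a description. Several runs hold genes of 1 family, such as the Bomanin, Cyp6a and GstE genes. The longest held 8 genes on chromosome arm 3R, from CG17477 to CG5246, all lower in the larva. Of these, CG17477, CG31266 and CG5246 were brighter in the midgut of both stages than in the hindgut. For CG5246 the larval and adult means were 8.39 and 82.5 in the hindgut and 1741 and 1056 in the midgut. The part of midgut RNA in this run was not tested. A run of 6 genes on 2L from CG17104 to CG7294 was higher in the larva and contains CG7299, the gene with the widest larval excess.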
